A study of Mus musculus with 48 samples.

Results

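The wild-type striatum is described here from 8 mice of the C57BL/6J background, chosen by their genotype label, B6 wild-type, out of 16 mice in the series. They make up 24 of the 48 sequenced runs, since every library was sequenced on 3 lanes. The animals were about 50 days old and were wild-type littermates of a congenic line, which is not compared here, and the labels name no treatment. Each sample pooled 3 mm punches from the left and right striatum of a single mouse, so it holds every cell type of the punch, and fewer cells of a type and less RNA per cell cannot be told apart. Mice are named by their labels, and by label 4 mice were male (Sample_4672, Sample_4712, Sample_4732 and Sample_4734) and 4 were female (Sample_4676, Sample_4738, Sample_4753 and Sample_4806).

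The striatum is the main input nucleus of the basal ganglia. Most of its neurons are GABA-releasing medium spiny neurons (MSNs), which receive glutamate from cortex and thalamus and dopamine from the midbrain. MSNs of the direct pathway carry the D1 dopamine receptor with the peptides substance P and dynorphin, and MSNs of the indirect pathway carry the D2 receptor with enkephalin and an adenosine receptor. A small number of interneurons, together with glia and vessels, make up the rest.

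Summed over lanes, a mouse had 73.1 to 82.0 M gene counts (M for the mega prefix), with a mean of 78.1 ± 3.08 M (SD, n = 8), in a table of 23420 genes. A value of 1 in counts-per-million (CPM) thus stood on 73.1 to 82.0 counts. These counts varied between lanes of a library more than independent counts would. Chi-square over its degrees of freedom was 1.89 to 1.94, where independent counts give about 1. Across genes of at least 1 CPM, pairs of mice had Spearman coefficients of 0.993 to 0.998, a description across genes, which are not independent replicates. Between 9 and 140 genes differed by more than 1 on the log2 scale in a pair. One library went against its label. Xist, the noncoding RNA made from the inactive X chromosome, stood at 958, 1529 and 1408 CPM in Sample_4676, Sample_4738 and Sample_4753 but at 2.73 CPM in Sample_4806, the other library labelled female. The males had 1.63 to 17.3 CPM. The 4 Y-linked genes Ddx3y, Eif2s3y, Kdm5d and Uty together gave 13555 to 14854 counts in males and 7 to 68 counts in the libraries labelled female, with 7 in Sample_4806. That library therefore had neither the Xist level of the other females nor the Y transcripts of the males. For the sex differences described, the call or count without it is also given.

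The abundance ranking was led by transcripts of neurons and glia. By CPM, the share of a library that a gene took up, the first 3 genes were Meg3, a long noncoding RNA of neurons, Mbp, the myelin basic protein, and Kif5a, a kinesin motor of axonal transport. Meg3 had a lowest value of 4595, a median of 5814 and a highest value of 6279 CPM. Mbp ran from 4224 through a median of 5109 to 6470 CPM. Kif5a ran from 4263 through a median of 4578 to 5610 CPM. The ranges of the 3 genes overlapped, and each of them stood in the first 3 places in all 8 mice. Slc1a2, the astrocyte glutamate transporter (2983 ± 221 CPM), and Ndrg4 (2855 ± 241 CPM, SD, n = 8 each) were also among the first 10. The 10 most abundant genes took 3.48 ± 0.236% of the counts, the 100 most abundant 15.9 ± 0.272%, and the 1000 most abundant 47.7 ± 0.454% (SD, n = 8). Of the first 100, 87 genes were in the first 100 of every mouse, and 115 genes entered it in at least 1 mouse.

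Long transcripts collect more counts than short ones, so levels of different genes are compared per kb of exon. This ranking put small, highly expressed transcripts first. Fth1, the ferritin heavy chain that stores iron, had the highest level, 1983 ± 229 CPM per kb, and was followed by Pcp4, a calmodulin-binding peptide abundant in MSNs, at 1663 ± 98.3 CPM per kb. Calm2 followed at 1310 ± 46.6 CPM per kb, Ckb, the brain creatine kinase, at 1129 ± 122, and Cpe, the carboxypeptidase that trims peptide precursors, at 1100 ± 42.6 CPM per kb. Cst3, the secreted protease inhibitor cystatin C, stood at 1097 ± 95.8 CPM per kb. Penk, the enkephalin precursor, ranked 8 of all genes with a length at 973 ± 105 CPM per kb, and Ppp1r1b, which encodes the dopamine-regulated phosphatase inhibitor DARPP-32, ranked 16 at 675 ± 71.8 CPM per kb (SD, n = 8 each). Neighbours in this order mostly did not differ beyond their spread. Fth1 ran from 1670 to 2403 and Pcp4 from 1510 to 1840 CPM per kb, and these ranges overlap. Pcp4 and Calm2, at 1253 to 1383 CPM per kb, did not overlap.

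**Figure D1:**
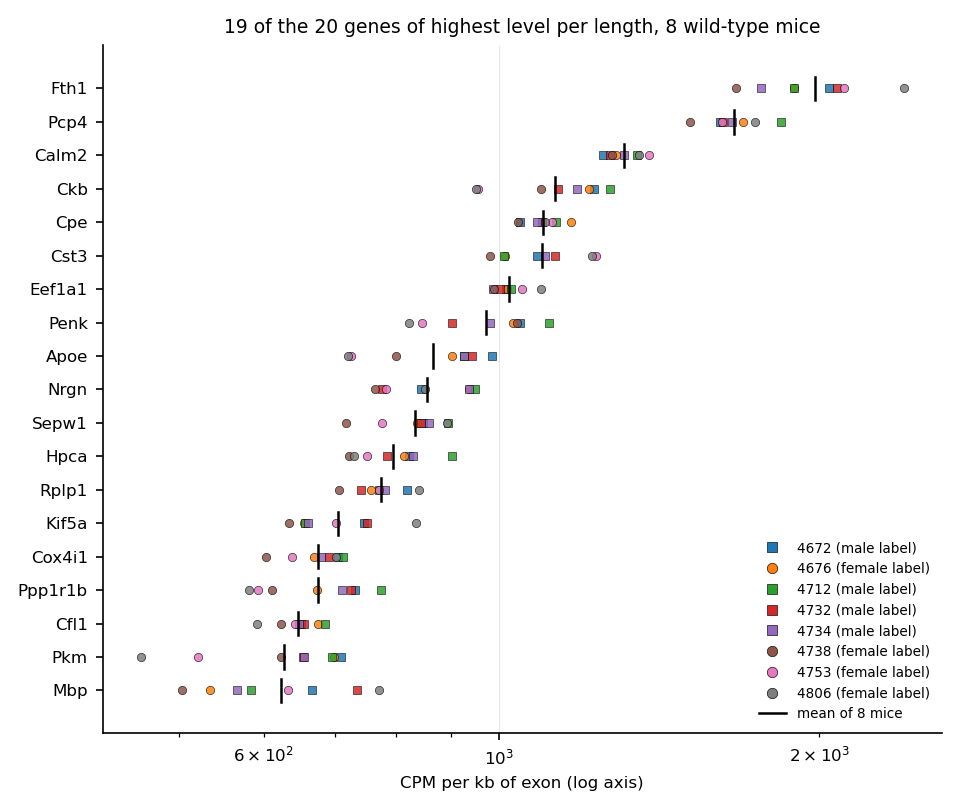
Level per length of 19 of the 20 highest genes. Each point is a mouse (squares male label, circles female label), bars are means of 8 mice, and the x axis is CPM per kb of exon on a log axis. Fth1 (mean 1983) and Pcp4 (mean 1663) lead, and the points of most neighbouring genes overlap.

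The breadth of the transcriptome was similar in every mouse. At 1 CPM or more, 13650 genes were present in all 8 mice, and single mice had 13951 to 14232 such genes. At 100 CPM or more, 2162 genes were present in every mouse, and at 1000 CPM or more 67 were. Protein-coding genes took 97.8 ± 0.219% and long intergenic noncoding RNAs 0.979 ± 0.132% of counts (SD, n = 8). Among nuclear noncoding RNAs, Snhg11 stood at 2498 ± 284 CPM, Malat1 at 1815 ± 315 CPM and Rian at 792 ± 72.9 CPM (SD, n = 8 each). Rn45s, the ribosomal RNA precursor, took 0.191 to 0.275% of counts in 7 mice and 0.439% in Sample_4806.

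Marker lists were summed as a share of length-scaled counts, that is, of counts divided by exon length and summed over all genes with a length. A share is a sum over chosen genes, so it is not a share of cells, and lists of different genes are set beside each other as descriptions only. The list of genes shared by all MSNs took 2.83 ± 0.135% with 30 genes, astrocyte markers 1.57 ± 0.0525% with 20 genes, and oligodendrocyte markers 0.844 ± 0.116% with 20 genes (SD, n = 8). Their ranges did not overlap. Endothelial markers took 0.182 ± 0.00546%, microglial markers 0.161 ± 0.00783%, interneuron markers 0.149 ± 0.01004% and markers of oligodendrocyte precursor cells (OPCs) 0.0714 ± 0.00606%. Mural cells, which wrap the vessels, had 0.0302 ± 0.00196%.

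Genes enriched in direct-pathway MSNs took 0.153 ± 0.00831% (12 genes) and those enriched in indirect-pathway MSNs 0.499 ± 0.0463% (9 genes with a length, SD, n = 8). Penk alone, at 973 CPM per kb, led the second list, which summed to 1339 CPM per kb, and it is also in the list of all MSNs. Without Penk the indirect-pathway share was 0.137%. Tac1, the substance P precursor, likewise led the direct-pathway list and is also in the list of all MSNs. Without Tac1 the direct-pathway share was 0.0792%.

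Single genes carried much of several lists. Among MSN genes, Pcp4, Penk, Ppp1r1b and Pde1b, a calcium-dependent phosphodiesterase at 420 ± 32.4 CPM per kb, stood highest. Pde10a, the phosphodiesterase that marks MSNs, had 2226 CPM in the lowest mouse, a median of 2403 and 2546 CPM in the highest. The astrocyte list was led by Cst3 and by Apoe, the lipid carrier, with 866 ± 103 CPM per kb. Glul, glutamine synthetase, had 477 ± 18.9 and Sparcl1 445 ± 30.1 CPM per kb. The oligodendrocyte list was led by Mbp at 624 ± 94.9 CPM per kb. In the microglial list, the lysosomal protease Ctss and the complement gene C1qa stood at 61.7 ± 5.09 and 54.4 ± 6.37 CPM per kb. Bsg, a surface glycoprotein that other cells also make, reached 223 ± 9.32 CPM per kb and Cldn5, a tight-junction protein, 41.0 ± 2.97 CPM per kb in the endothelial list (SD, n = 8 each).

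**Figure D2:**
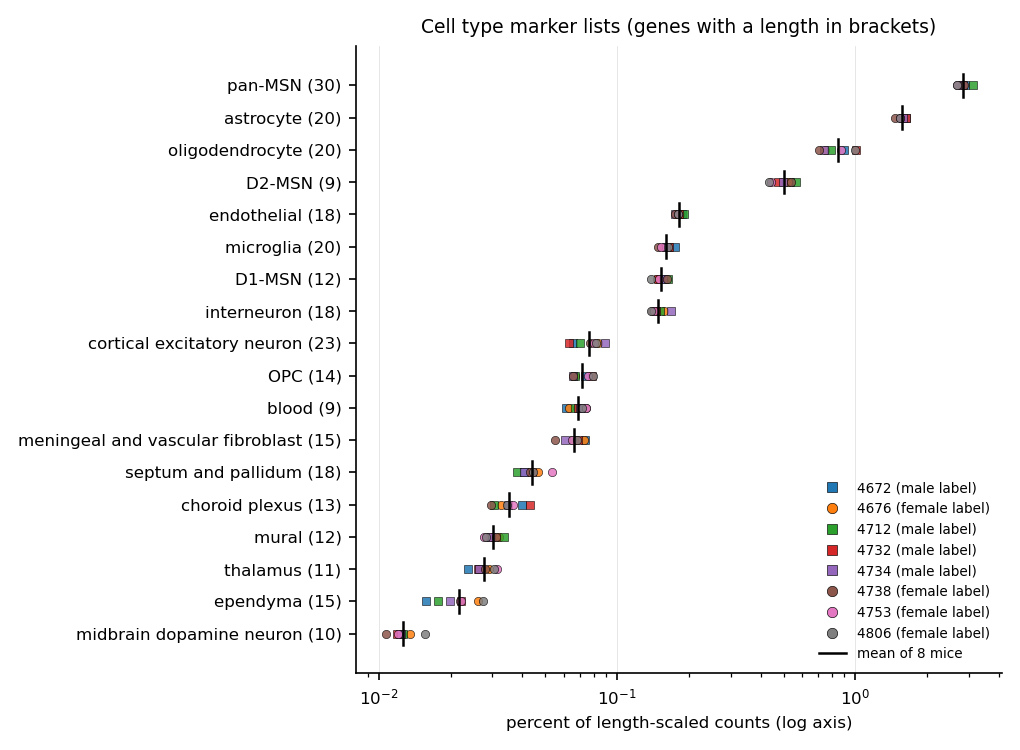
Share of length-scaled counts held by each of 18 marker lists, on a log axis. Points are mice (squares male label, circles female label) and bars are means of 8 mice. The MSN list (mean 2.83%) stands above the astrocyte list (mean 1.57%) and the oligodendrocyte list (mean 0.844%).

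Marker lists of neighbouring regions took small shares. Cortical excitatory neuron markers took 0.0760 ± 0.00927%, markers of septum and pallidum 0.0438 ± 0.00465%, thalamic markers 0.0276 ± 0.00252%, choroid plexus markers 0.0351 ± 0.00456% and ependymal markers 0.0216 ± 0.00387% (SD, n = 8). Nexn led the thalamic list at 52.2 ± 3.76 CPM per kb, and Enpp2, which oligodendrocytes also make, led the choroid plexus list at 81.3 ± 8.62 CPM per kb. Without these leading genes the thalamic share was 0.00818% and that of the choroid plexus 0.00479%. Of the 14 choroid plexus markers, 9 stood under 1 CPM on average. Midbrain dopamine neuron markers took 0.0126 ± 0.00146%, and 0.00299% without their most abundant member. Slc6a3, the dopamine transporter of those neurons, stood at 0.0393 to 0.356 CPM, and Th, the enzyme that makes the dopamine precursor, at 5.03 to 8.62 CPM. The blood list of 13 genes had 4 members at 0 counts in every mouse, all of them globin genes, which exist in near-identical copies, so the list holds no measure of haemoglobin here. None of the 13 mitochondrially encoded genes is in the table used here.

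The receptors and peptides of both MSN pathways were present in every mouse. Drd2 encodes the D2 receptor of the indirect pathway (chromosome 9, 49148732 to 49216282, plus strand, build NCBIM37). It had a lowest value of 187, a median of 230.0 and a highest value of 243.5 CPM. Drd1a, the D1 receptor of the direct pathway (chromosome 13, 54146555 to 54151027, minus strand), had a lowest value of 263.7, a median of 293 and a highest value of 306 CPM. Per kb the levels were 87.0 ± 7.96 for Drd2 and 82.1 ± 4.18 for Drd1a (SD, n = 8 each), and their ranges overlapped. The ratio of Drd1a to Drd2 per kb was 0.948 ± 0.0658 (SD, n = 8). It was above 1 in Sample_4738, Sample_4753 and Sample_4806, at 1.01 to 1.02, and 0.857 to 0.947 in the other 5 mice. Without Sample_4806 the mean ratio was 0.939. In CPM, with no division by length, the ratio was 1.31 ± 0.0911. The other dopamine receptors were far lower. Drd3 had 0.262 to 2.50 CPM (lowest in Sample_4806 and highest in Sample_4738), Drd5 3.38 ± 0.396 CPM and Drd4 0.162 ± 0.0561 CPM (SD, n = 8).

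Peptide precursors differed widely in level. Penk (chromosome 4, 4060678 to 4065966, minus strand) ran from 1344 through a median of 1642 to 1821 CPM, and the 2 lowest mice were Sample_4806 and Sample_4753. Tac1, the precursor of substance P, ran from 188 through a median of 204 to 224 CPM, and stood at 197 ± 12 CPM per kb. Pdyn, the dynorphin precursor, ran from 24.9 through a median of 38.8 to 42.4 CPM, and stood at 12.8 ± 2.17 CPM per kb. Penk was thus 4.93 ± 0.376 times Tac1 per kb, and Tac1 was 15.9 ± 2.89 times Pdyn (SD, n = 8). Pdyn was lowest in Sample_4806 and Sample_4753, at 24.9 and 29.6 CPM, against 37.5 to 42.4 CPM in the other 6. Sst, the somatostatin precursor of interneurons, had 211 ± 20.4 and Npy 73.5 ± 4.36 CPM per kb. Their ranges did not overlap, while those of Sst and Tac1 did. Of 30 listed precursors, 10 stood under 1 CPM on average, among them Oxt and Avp, the hypothalamic precursors of oxytocin and vasopressin, at 0.153 ± 0.152 and 0.102 ± 0.0919 CPM. The granin-type precursors Scg2, Chgb and Vgf stood at 164 ± 19.0, 112 ± 10.6 and 94.5 ± 19.5 CPM per kb (SD, n = 8 each).

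Among interneuron genes, Chat, the acetylcholine-making enzyme of cholinergic interneurons, had 21.9 to 32.7 CPM and stood at 9.57 ± 1.11 CPM per kb. Pvalb, the calcium-binding protein of fast-spiking interneurons, had 11.0 to 22.1 CPM, and was highest in Sample_4672 and Sample_4732. Cck ran from 14.4 to 40.9 CPM, with the lowest value in Sample_4732 and the highest in Sample_4734. Of the 20 interneuron genes, 5 passed a between-mouse coefficient of variation of 0.25, a measure explained with the spread between mice. Of all genes of at least 1 CPM 2.74% passed it, and of those of 1 to under 10 CPM 7.90%.

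Receptors that MSNs are known for were high among the 20 receptor families. Adora2a, the stimulatory adenosine receptor of indirect-pathway MSNs, had a lowest value of 438, a median of 495 and a highest value of 562 CPM, and stood at 196 ± 14.2 CPM per kb. It was 2.26 ± 0.163 times Drd2 per kb (SD, n = 8). Adora1, the inhibitory adenosine receptor, stood at 28.4 ± 1.22 CPM per kb, Adora2b at 1.82 ± 0.0961 and Adora3 at 0.498 ± 0.0755 CPM per kb. Cnr1, the cannabinoid receptor of neurons, had 80.9 ± 6.44 CPM per kb, and Cnr2 0.0896 ± 0.0107 CPM per kb (SD, n = 8 each). The levels of Drd2, Drd1a and Cnr1 overlapped.

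Ionotropic glutamate receptors followed the same order in all 8 mice. Gria2, the subunit that limits calcium flow through AMPA receptors, was highest at 145 ± 11.1 CPM per kb, and Gria1 followed at 95.2 ± 4.84. Gria3 stood at 24.8 ± 0.954 and Gria4 at 15.7 ± 0.743 CPM per kb. Gria2 was 1.53 ± 0.145 times Gria1. Among NMDA receptor genes the obligatory subunit Grin1 stood at 37.4 ± 4.39, Grin2c at 17.4 ± 1.24, Grin2b at 12.5 ± 2.55 and Grin2a at 5.44 ± 0.945 CPM per kb. Grin2b was 2.29 ± 0.214 times Grin2a and ran from 73.0 CPM in Sample_4712 to 137 CPM in Sample_4738. Grik5 led the kainate and delta family at 71.3 ± 4.02 CPM per kb. Grm5, a metabotropic receptor of MSNs, stood at 59.9 ± 2.97 and Grm3, mostly of glia, at 29.5 ± 1.89 CPM per kb (SD, n = 8 each).

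Among GABA-A receptor subunits, Gabrd had 52.4 ± 3.73 and Gabra4 51.6 ± 2.44 CPM per kb, and their ranges overlapped. Gabbr1, a GABA-B receptor subunit, lay between 918 and 971 CPM in the 8 mice, a CV of 0.0177, with a level of 120 ± 2.17 CPM per kb, against 12.5 ± 0.893 CPM per kb for its partner Gabbr2. Glrb, the glycine receptor beta subunit, had 50.4 ± 1.95 CPM per kb. Of 19 GABA-A genes, 7 stood under 1 CPM.

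For acetylcholine, Chrm4, the inhibitory muscarinic receptor enriched in direct-pathway MSNs, had 41.0 ± 4.11 CPM per kb and Chrm1 22.6 ± 2.50, with no overlap. Chrm2 stood at 0.674 ± 0.0755 and Chrm5 at 0.427 ± 0.160 CPM per kb, and Chrm3, which has no usable length, at 17.1 ± 2.23 CPM. Of 16 nicotinic genes, 12 stood under 1 CPM, and Chrnb2 was highest at 11.3 ± 0.675 CPM per kb. Opioid receptors were ordered Oprd1 (delta) at 10.2 ± 0.628, Oprl1 (nociceptin) at 7.34 ± 0.648, Oprk1 (kappa) at 4.71 ± 0.730 and Oprm1 (mu) at 0.319 ± 0.0764 CPM per kb (SD, n = 8 each). Oprm1 was 0.0314 ± 0.00775 of Oprd1 per kb. Its annotated exons are long, so its level in CPM, 1.91 to 3.88, is also given. Among the other families, Htr2c led serotonin receptors at 6.77 ± 0.688, Adra2c adrenergic receptors at 23.9 ± 2.86, Hrh3 histamine receptors at 40.8 ± 4.46 and P2ry12, a microglial receptor, the purinergic receptors at 18.5 ± 1.94 CPM per kb. Ntsr2, a neurotensin receptor of astrocytes, led the neuropeptide receptors at 55.7 ± 3.91 CPM per kb, and Ntrk2, the receptor of BDNF, the neurotrophin receptors at 37.8 ± 2.09 CPM per kb (SD, n = 8 each).

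**Figure D3:**
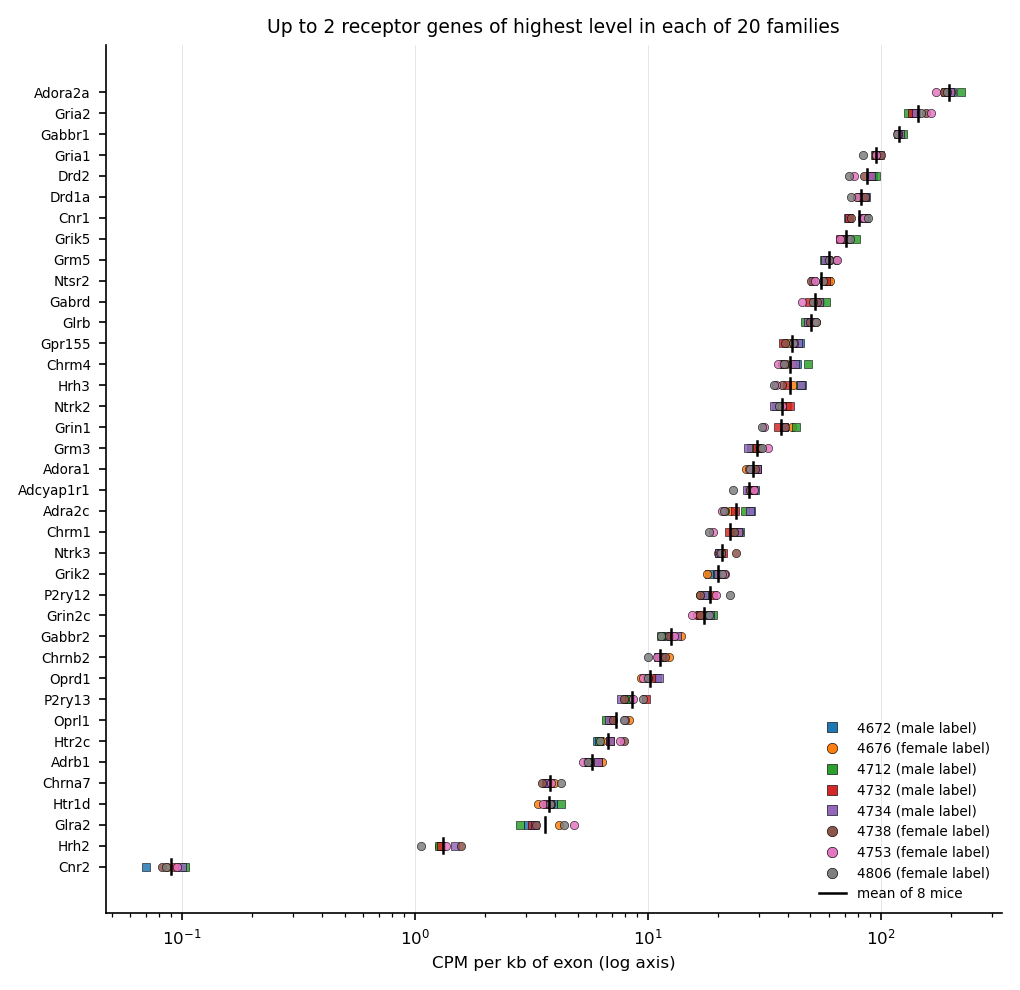
Up to 2 of the highest receptor genes of each of 20 families, in CPM per kb of exon on a log axis. Points are mice (squares male label, circles female label) and bars are means of 8 mice. Adora2a (mean 196) leads the genes shown, while Drd2 (mean 87.0), Drd1a (mean 82.1) and Cnr1 (mean 80.9) overlap.

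The spread between mice was expressed as a coefficient of variation (CV, SD over mean) with the variation between lanes subtracted, for 14100 genes of at least 1 CPM on average. The median CV was 0.0661, and genes at the 5th and 95th percentiles had 0.00989 and 0.195. The CV exceeded 0.25 in 387 of these genes, 2.74%. The share was 7.90% among genes of 1 to under 10 CPM, 0.873% from 10 to under 100 CPM and 0.416% at 100 CPM or more. Without Sample_4806 the count was 373. Among the steadiest genes of at least 10 CPM were Setd3, Ube2h, Fam168b, Trap1, Trappc3, Pi4kb, Icmt, Chmp2a and Crtc2, whose total CV with lane variation left in was 0.0109 to 0.0145. Of 21 reference genes in common use none passed 0.25. Rplp0, a ribosomal protein, had a CV of 0.0152, while Gapdh had 0.0978 and Actb 0.113.

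Identity genes of the main cell classes did not pass a CV of 0.25, but only 2.74% of all genes did. None of the 30 MSN genes passed, nor did any D1, D2, astrocyte, oligodendrocyte, OPC, microglial, endothelial, mural or fibroblast marker of at least 1 CPM. The median CV was 0.0597 for MSN genes, against 0.0661 for all genes. It was higher for D1 (0.0860), D2 (0.0945), astrocyte (0.0800), OPC (0.0808), microglial (0.0827), endothelial (0.0798), mural (0.0997) and fibroblast markers (0.111). Of the 30 MSN genes, 20 were highest in Sample_4712, and 23 were lowest in Sample_4753 or Sample_4806. Oligodendrocyte genes spread most among the larger classes, with a median CV of 0.147. Of 20, 10 were highest in Sample_4732 and 9 in Sample_4806, and 14 were lowest in Sample_4738. Cytosolic ribosomal protein genes had a median CV of 0.0518, yet 36 of 50 were highest in Sample_4806 and 37 of 50 lowest in Sample_4738.

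Immediate early genes were prominent among the variable genes. These genes are switched on in neurons within minutes of activity, and encode mostly transcription factors. Of 26 members of at least 1 CPM, 14 passed a CV of 0.25, against 2.74% of all genes. Their summed share ran from 0.0868% in Sample_4806 to 0.248% in Sample_4734. Fos, a subunit of the AP-1 factor (chromosome 12, 86814840 to 86818223, plus strand), had 24.8 CPM in Sample_4734, 14.3 in Sample_4732, 10.2 in Sample_4676, 8.07 in Sample_4672 and 7.44 in Sample_4753. It had 2.37 in Sample_4738, 2.20 in Sample_4806 and 2.19 CPM in Sample_4712. Nr4a1, an orphan nuclear receptor, ran from 21.9 CPM in Sample_4806 through a median of 49.5 to 197 CPM in Sample_4734. Arc, a synaptic protein whose RNA travels to dendrites, had 36.9 CPM in Sample_4806, 37.0 in Sample_4738 and 46.5 in Sample_4712, and 261 in Sample_4734. Egr1, a zinc finger factor, ran from 120.0 CPM in Sample_4806 through a median of 206 to 406 CPM in Sample_4734. Of the 26 genes, 17 were highest in Sample_4734, and 14 were lowest in Sample_4806, 5 in Sample_4712 and 3 in Sample_4738.

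The members of this list did not spread alike. The CV was 0.863 for Fos, 0.824 for Egr2, 0.809 for Nr4a1, 0.727 for Nr4a3, 0.687 for Arc and 0.668 for Fosl2. Jun, another AP-1 subunit, ran only from 30.2 to 32.3 CPM, with no variation beyond that between lanes, and Homer1, a synaptic scaffold, had a CV of 0.0785. The male-labelled Sample_4734, Sample_4732 and Sample_4672 had the highest summed shares, but the male-labelled Sample_4712 was second lowest. Time of day, handling and order of collection are not in the labels, and their part in this spread was not tested. The MSN list stood at 2.83% in Sample_4734, in a range of 2.68 to 3.11% over the 8 mice. The 5′ to 3′ balance of counts, as a median log2 ratio over 5520 genes, was 0.222 there, in a range of 0.120 to 0.292. That mouse had the highest share of interneuron markers, at 0.169% (others 0.138 to 0.157%), and of cortical excitatory neuron markers, at 0.0890% (0.0627 to 0.0829%). Heat shock genes were also highest there, at 0.707% (0.559 to 0.703%). The part of any of these in the spread of the immediate early genes was not tested. Rgs2, a regulator of G protein signalling listed with striatal signalling genes, followed a like order, from 91.3 CPM in Sample_4806 to 228 CPM in Sample_4734.

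**Figure D4:**
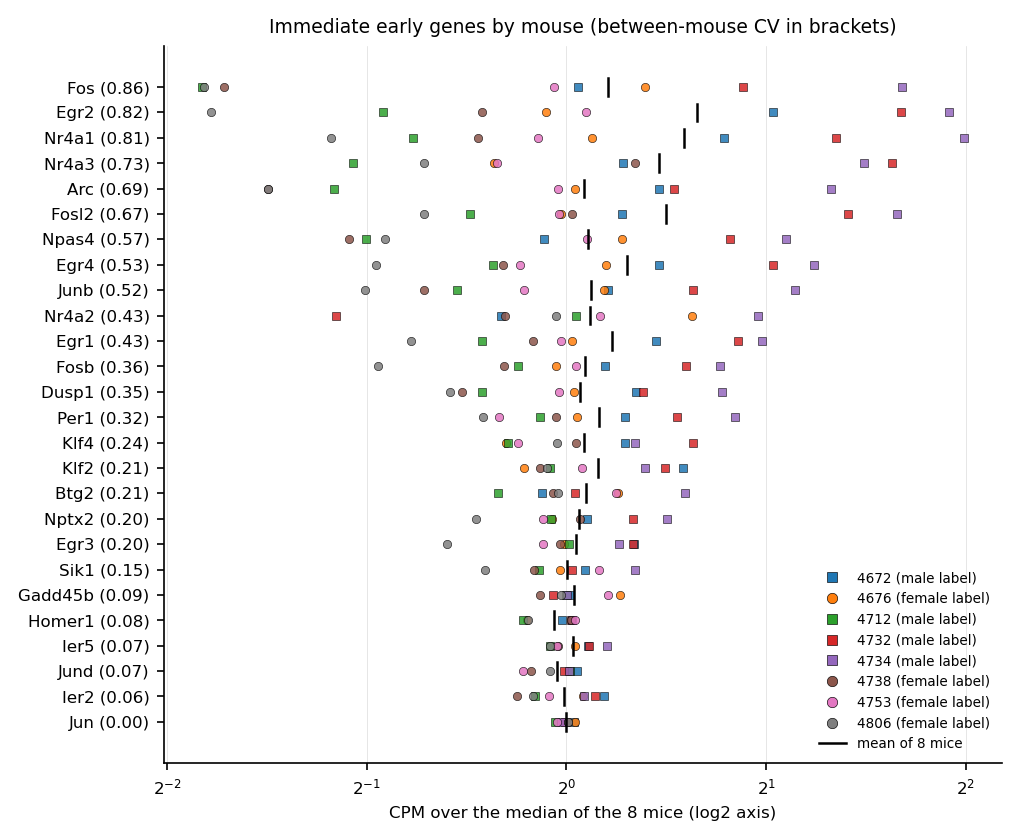
Immediate early genes of at least 1 CPM, each as CPM over the median of the 8 mice on a log2 axis, ordered by between-mouse CV. Squares are male and circles female labels, and bars are means. Mouse Sample_4734 is highest for 17 of 26 genes, and Jun (CV at the foot of the list) does not spread.

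The promoters of the 4 immediate early genes of largest CV are shown as their sequence context. Cyclic AMP response elements (CRE, TGACGTCA) and serum response elements (the CArG box) are the classical elements of early gene promoters. In the RefSeq sequence of build GRCm38.p6, each line gives the 250 bases before an annotated start, 5′ to 3′ on the strand of the gene. Capitals mark a CArG box or the CRE core TGACG on either strand, which was added to the search after the full CRE had no match in these 4. They lie on the plus strand, Fos at chr12:85473640-85473889, Egr2 at chr10:67537316-67537565, Nr4a1 at chr15:101266596-101266845 and Nr4a3 at chr4:48045055-48045304. Egr2 has 5 listed starts, and the one furthest upstream with a CArG box is shown.
Fos: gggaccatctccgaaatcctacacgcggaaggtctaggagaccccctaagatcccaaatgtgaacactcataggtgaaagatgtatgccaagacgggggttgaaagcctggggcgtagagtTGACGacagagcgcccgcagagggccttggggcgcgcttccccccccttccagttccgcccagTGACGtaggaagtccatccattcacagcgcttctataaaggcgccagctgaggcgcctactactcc
Egr2: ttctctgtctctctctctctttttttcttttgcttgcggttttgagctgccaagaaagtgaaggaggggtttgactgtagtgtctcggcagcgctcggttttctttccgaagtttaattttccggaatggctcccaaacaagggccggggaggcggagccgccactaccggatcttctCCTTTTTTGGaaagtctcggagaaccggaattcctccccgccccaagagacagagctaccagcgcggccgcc
Nr4a1: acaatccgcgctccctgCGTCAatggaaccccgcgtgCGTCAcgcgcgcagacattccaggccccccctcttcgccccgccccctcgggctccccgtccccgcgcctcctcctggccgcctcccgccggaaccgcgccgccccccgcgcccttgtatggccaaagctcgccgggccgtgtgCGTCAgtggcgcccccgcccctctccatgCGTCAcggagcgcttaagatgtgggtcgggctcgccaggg
Nr4a3: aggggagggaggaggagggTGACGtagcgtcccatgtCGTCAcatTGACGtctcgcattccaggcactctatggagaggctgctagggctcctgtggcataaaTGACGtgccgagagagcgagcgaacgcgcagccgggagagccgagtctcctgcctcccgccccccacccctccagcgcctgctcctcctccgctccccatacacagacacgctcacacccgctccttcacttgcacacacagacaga
Fos held 2 cores, Nr4a1 and Nr4a3 held 4 each, and Egr2 held a CArG box starting 72 bases before the start site. The stretch shown for Egr2 was picked for that box and has no core. The windows of the Egr2 starts further downstream held 2 cores each beside a CArG box. Over all 32851 RefSeq promoter windows of 300 bases, counted on both strands, 20.8% held a core, 1.79% a full CRE and 1.63% a CArG box. Of 20 early genes of at least 1 CPM with a window in the table, 15 held a core in any of their windows, 2 a full CRE and 1 a CArG box. These are counts of genes, some with several windows, while the shares above are of single windows, so they are unlike units. A full CRE contains a core on each strand, so the motifs overlap. A match in these letters is a description and not a measured binding site. The windows run from 250 bases before a start to 50 after it. Elements further upstream were not searched, so a gene without a match here may still have one there. Early genes with no window in the set searched, among them Egr1 and Arc, are not counted.

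Lists of the tissue around the striatum also held variable genes, as did the sex chromosome list (6 of 12 past 0.25), neuropeptide receptors (7 of 23), neuropeptide precursors (6 of 20) and serotonin receptors (3 of 11). Of all genes 2.74% passed, and of those of 1 to under 10 CPM 7.90% passed, so the share depends on level. Slc17a7, which loads glutamate into the vesicles of cortical neurons, had 48.9 CPM in the lowest mouse, Sample_4732, a median of 125 and 175 CPM in the highest, Sample_4734. Of 23 cortical genes 10 passed a CV of 0.25, and 10 were highest in Sample_4734 while 10 were lowest in Sample_4732. Nr4a2, in both this list and the immediate early list, is among them. Of 18 septal and pallidal genes 7 passed, and 9 were highest in Sample_4753. Zic1, a factor of septal and thalamic neurons, ran from 13.99 through a median of 17.6 to 45.3 CPM, and its 3 highest mice were Sample_4753, Sample_4676 and Sample_4806. Zic2 and Zic4 reached 17.4 and 10.2 CPM in Sample_4753 too.

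Ependymal and choroid plexus genes varied from mouse to mouse as well. Ependymal cells line the ventricles and carry motile cilia. Of 15 genes 8 passed a CV of 0.25, against 2.74% of all genes and 7.90% of those of 1 to under 10 CPM. Of the 15, 8 were highest in Sample_4806 and 9 lowest in Sample_4672. Ccdc153, a cilia gene, ran from 3.13 CPM in Sample_4672 through a median of 6.63 to 11.2 CPM in Sample_4806. Ttr, transthyretin, the most abundant transcript of the choroid plexus, had 0.385 CPM in Sample_4712 and 14.01 to 18.1 CPM in Sample_4672, Sample_4732 and Sample_4734, with a between-mouse CV of 0.952. Of the other choroid plexus markers 9 stood under 1 CPM, with Kcne2 at 0.228 ± 0.0739 and Folr1 at 0.524 ± 0.170 CPM (SD, n = 8), while Clic6 stood at 16.3 CPM. The part of dissection in these values was not tested.

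**Figure D5:**
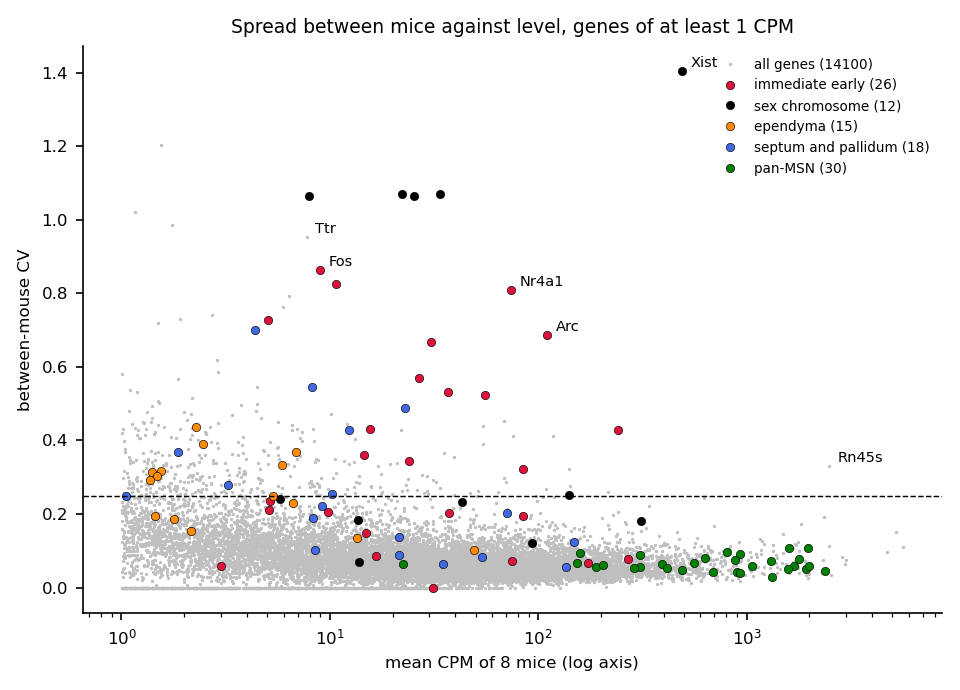
Between-mouse CV of 14100 genes against mean CPM (log axis). Coloured points are listed genes and the dashed line marks 0.25, which 387 genes exceed. Of the immediate early genes 14 of 26 and of the sex chromosome genes 6 of 12 lie above the line, and the 30 MSN genes lie under it.

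The sexes were compared by label within the wild-type mice, 4 against 4, with the edgeR quasi-likelihood test and Benjamini-Hochberg adjustment. Of 16432 genes tested, 59 were called (0.359%), 13 higher and 46 lower in males. The split changed with the setting, to 270 higher and 334 lower with DESeq2, 284 and 300 without Sample_4676, and 93 and 91 without Sample_4712. At an unadjusted p under 0.05 there were 2926 genes, 17.8% of those tested. Y-linked genes led, as Ddx3y stood at 67.1 ± 6.24 CPM in males and 0.164 ± 0.0822 CPM in the libraries labelled female (adjusted p = 5.67e-12). X-linked Ddx3x, Kdm6a and Jpx were among the genes lower in males. X-linked Egfl6 was higher in males (edgeR adjusted p = 0.0411). It was lost without Sample_4672 (0.153), Sample_4734 (0.0506), Sample_4753 (0.0983) or Sample_4806 (0.110). Ddx3x had 264 ± 18.4 CPM in males and 361 ± 29.7 in females, a log2 difference of -0.41 ± 0.07 (SE, adjusted p = 0.0331), with no overlap. Without Sample_4806 the females had 374 ± 16.5 CPM (n = 3, edgeR adjusted p = 0.00365), and Kdm6a and Jpx were still called. All of these X-linked calls were lost without Sample_4672, with adjusted p of 0.137 for Ddx3x and Kdm6a and 0.149 for Jpx, and without Sample_4753, with 0.0871, 0.0857 and 0.0983 for Ddx3x, Kdm6a and Jpx. Kdm6a was also lost without Sample_4732 (adjusted p = 0.0617). In Sample_4806 Ddx3x stood at 321 CPM, between the males (247 to 282) and the other females (364 to 393). X-linked Eif2s3x, at 123 CPM in Sample_4806, lay near the males (110 to 120.1) and below the other females (177 to 195).

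Outside the sex chromosomes, Dlx1, Sp8 and Hspb1 were among the genes called. Dlx1, a homeobox factor of GABA-releasing neurons and their precursors, had 5.92 ± 1.11 CPM in males and 14.3 ± 2.40 in females (log2 difference -1.24 ± 0.14 SE, adjusted p = 0.00377). It stayed called without any single mouse. Sp8, a factor of newly formed interneurons, had 1.02 ± 0.427 and 4.41 ± 1.29 CPM (log2 difference -2.08 ± 0.29 SE, adjusted p = 0.0331). Hspb1, a small heat shock protein, was higher in males, at 10.9 ± 1.47 against 6.73 ± 0.947 CPM (adjusted p = 0.0331). Without Sample_4806 the adjusted p was 0.0953 for Sp8 and 0.103 for Hspb1, without Sample_4672 it was 0.0659 and 0.122, and without Sample_4753 it was 0.0693 for both. Without Sample_4806, 14 genes were called in all, 12 of them among the 59. Without Sample_4672, 9 genes were called, without Sample_4753 11, without Sample_4732 34, without Sample_4738 97, without Sample_4734 106, without Sample_4712 184 and without Sample_4676 584.

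Of the 15 ependymal genes, 14 had a negative log2 difference of males over females, with a median of -0.56 against -0.01 over all genes tested. At an unadjusted p under 0.05 there were 11 (73.3%, against 17.8% of all genes tested), and 1, Hydin, a cilia gene, was called. Hydin was lost without Sample_4672 (adjusted p = 0.137), Sample_4753 (0.0693) or Sample_4806 (0.110). These counts cover the listed genes only. Outside the list, Wdr52 was also lower in males (edgeR adjusted p = 0.00453) and stayed called with each single mouse left out. Ccdc108 was lower too (edgeR adjusted p = 0.0383), but was lost without Sample_4732 (0.0621), Sample_4753 (0.0693) or Sample_4806 (0.110). Without Sample_4806, 14 of the 15 ependymal genes were still negative, with a median of -0.45, and 6 had an unadjusted p under 0.05, against 13.9% of all genes. The summed shares of the list overlapped between the labels, at 0.0158 to 0.0221% in males and 0.0219 to 0.0274% in females, and Sample_4806 was the highest. Immediate early genes leaned the other way, with 24 of 27 positive and a median of 0.49, and none was called. At an unadjusted p under 0.05 there were 10 (37.0%, against 17.8% of all genes tested). Without Sample_4806 there were 5 (18.5%, against 13.9%), with 23 positive and a median of 0.49. That number depended on the mice used. Without Sample_4732 it was 3 (11.1%, against 14.5% of all genes), and without Sample_4712 it was 19 (70.4%, against 18.8%). MSN genes had 27 of 30 positive with a median of 0.11 and none called. At an unadjusted p under 0.05 there were 9 (30%, against 17.8% of all genes tested). Of all 16432 genes tested 7860 were positive. Other lists also leaned positive, such as heat shock (14 of 15), cytosolic ribosomal (43 of 52), interneuron (17 of 20), oligodendrocyte (17 of 20) and microglial genes (16 of 20). Cortical excitatory neuron genes (5 of 24 positive) and GABA-A receptors (3 of 16 positive) leaned the other way. Without Sample_4806, 27 MSN genes were positive with a median of 0.09, and 6 had an unadjusted p under 0.05 (20%, against 13.9%). Without Sample_4712, 3 MSN genes did (10%, against 18.8% of all genes), and without Sample_4738, 19 did (63.3%, against 19.0%). Mouse numbers of the females, save Sample_4676, are above those of all males, so sex by label and whatever goes with the numbering overlap in all but 1 female. Nothing in the labels says whether these animals came from separate litters, so p-values measure only the spread between these mice.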

How the data were processed

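Striatal RNA of 8 wild-type mice was sequenced on 3 lanes each. The authors deposited whole-number counts per gene and per exon bin, not normalised, per the file headers and values. Tools listed without a role in the submitters' processing notes are limma 3.22.7, edgeR 3.8.6, HTSeq 0.6.1p1 and FastQC 0.10.1, beside the builds mm9 and mm10. The aligner and the strand setting are not given in the sources used here, and the labels give both single-end and paired-end reads. Overlapping antisense genes and near-identical copies may therefore share or lose counts.

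Lane counts were summed per mouse and divided by the total (CPM). Exon length was the union of GENCODE exons on NCBIM37, matched by symbol for 21259 and by synonym for 776 genes. It was used for 17816 genes, holding 97.0% of counts, where exon-bin counts were 0.8 to 4 times the gene counts and exons covered at least 200 bases. The between-mouse CV is the square root of the variance between mice less the lane variance over 3 lanes, divided by the mean. Sex was tested with edgeR 4.0.16 (TMM, robust quasi-likelihood, filtered by expression) in R 4.3.3, with DESeq2 1.42.0 and limma 3.58.1 (voom) as alternatives. The calculations were checked on simulated data, and Python 3.11.15 made the summaries. At 73.1 to 82.0 M counts per mouse, 1 CPM stands on 73.1 to 82.0 counts, which varied between lanes more than independent counts would.

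The members and all 49 lists were chosen with earlier results of these data known. Of 694 listed names 679 were in the table. Named genes were the 30 highest by CPM and 20 by level per kb, the leading members of each list and receptor family, the 30 largest and 10 smallest CVs, the 20 smallest p for sex, and all precursors and reference genes. Genes named beyond this rule (Jun, Homer1, Nr4a2, Chat, Slc6a3, Gria4, Grin2a, Oxt, Avp, Kcne2, Folr1, Igfbpl1, Top2a and Egfl6) were chosen after their values were seen. Some genes that meet the rule are not reported here. No congenic mouse was used.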

Additional observations from a re-analysis of the deposited data

Results flagged for a closer look

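In each group of 8 mice, a mouse was set apart where its gap to the nearest other, over the whole range, exceeded Dixon's 95% critical value. Over 325 such checks 15 values were set apart, and chance alone sets apart about 1 in 20 groups, which over this many checks is about as many as were found. Of the 15, 6 concern Sample_4806 and 5 Sample_4753.

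In Sample_4806, the library whose sex label the Xist level went against, Rn45s stood at 4390 CPM (others 1914 to 2754), Rgs5, of pericytes, at 53.9 CPM (41.6 to 46.3), Cox6c at 252 CPM (189.9 to 216) and Myl4 at 6.59 CPM (1.09 to 3.51). It was lowest for Gria1 at 509 CPM (569.6 to 605) and for Adcyap1r1, a receptor of the peptide PACAP, at 153 CPM (176 to 191).

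In Sample_4753, Prkcd stood at 43.4 CPM (15.4 to 25.2), Dgkg at 102 CPM (56.7 to 77.0), Nts, the neurotensin precursor, at 13.9 CPM (6.84 to 9.82), Pgk1 at 408 CPM (365 to 385) and Rasd1 at 6.95 CPM (1.68 to 3.17).

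Tac2 reached 4.99 CPM in Sample_4732 (0.786 to 2.43), Ntrk3 126 CPM in Sample_4738 (105 to 111) and Capn11 5.50 CPM in Sample_4672 (0.175 to 2.44). The summed kainate and delta receptors took 0.0485% of length-scaled counts in Sample_4712 (0.0449 to 0.0465%).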

How the results depend on the processing

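No paired analysis was possible because the number of each mouse is its own and no group shares it. The count of genes called for sex was 604 with DESeq2, 113 with no filter on low counts, 58 with size factors of the DESeq2 type, 44 with limma-voom, and 9 to 584 without a single mouse. The 100 most abundant genes took 18.3% when ranked per kb, and 15.8 to 15.9% without a single mouse. With a floor of 5 CPM, 130 genes passed the CV of 0.25. Without the most abundant member the shares were 2.21% for the MSN list, 1.16% for astrocytes, 0.611% for oligodendrocytes, 0.136% for microglia and 0.0986% for endothelium. The largest relative drops were those of choroid plexus (0.0351 to 0.00479%), blood (0.0685 to 0.00786%), midbrain dopamine neurons (0.0126 to 0.00299%), genes enriched in indirect-pathway MSNs (0.499 to 0.137%) and thalamus (0.0276 to 0.00818%). With no division by length they were 1.37% for astrocytes, 1.13% for oligodendrocytes, 0.0869% for microglia and 0.109% for endothelium, and with the longest transcript as the length, chosen after seeing the data, 1.74% for astrocytes, 0.144% for microglia and 0.157% for endothelium. In CPM the ratio of Drd1a to Drd2 was 1.31, and summed receptors gave 516 CPM for dopamine, 1929 for AMPA, 619 for NMDA and 1325 for GABA-A. Division by length is what these last alternatives leave out. For every other change of value the cause was not tested. Depth limits genes under 1 CPM.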

Other observations

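Genes that no list held were also among those of mouse-dependent level. Igfbpl1 ran from 1.87 CPM in Sample_4734 to 7.53 CPM in Sample_4806, and Top2a, a gene of dividing cells, from 3.32 CPM in Sample_4734 to 12.5 CPM in Sample_4738. Top2a was higher in Sample_4738 and Sample_4806 than in any male. Igfbpl1, Dlx1 and Sp8 were higher in every library labelled female than in any male. Igfbpl1 was among the genes called for sex (edgeR adjusted p = 0.0431). It was lost without Sample_4672 (0.149), Sample_4738 (0.0552), Sample_4753 (0.129) or Sample_4806 (0.143). Met, a growth factor receptor, ran from 0.2655 to 3.31 CPM, and Col6a3, a collagen, from 2.46 to 14.7 CPM, both highest in Sample_4753 and second in Sample_4806. Igfbpl1 and Top2a were chosen after their values were seen. In a principal component analysis of the 8 mice the first component held 43.7% of the variance. It set Sample_4676, Sample_4738, Sample_4753 and Sample_4806 on the side opposite to Sample_4672, Sample_4712, Sample_4732 and Sample_4734. Sex-linked genes were kept in it, so a split by sex label is partly built in. Among the largest weights were Y-linked Ddx3y, Eif2s3y, Kdm5d and Uty on the male side and Xist on the other. Egr2, Nr4a1, Arc, Fos and Ttr also weighed on the male side.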
